A study of Homo sapiens with 12 samples.

Results

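The DNA replication machinery and the enzymes that make its thymidylate were followed as 40 genes in a pair of established uterine leiomyosarcoma (uLMS) cell lines, SK-UT-1B, from a primary tumor, and SK-LMS-1, from a metastasis. The genes were taken by symbol from the 60649 rows of the count table, each matched exactly 1 row, and all 40 passed the filter on low counts, which left 21114 genes. RNA was sequenced from 12 libraries in 6 groups of 2, and every group had wild-type cells harvested after 72 h. SK-UT-1B received either the DMSO vehicle (libraries 4-1 and 4-2) or MK-0752 together with gemcitabine and docetaxel, called the combination here (libraries 3-1 and 3-3). SK-LMS-1 received MK-0752 alone (libraries 2-2 and 2-3), the combination (libraries 4-1 and 4-2), or DMSO. Its DMSO libraries form set 2, with 2-1 and 2-3, and set 4, with 4-1 and 4-2. The set is the first number in a library's name, whose meaning the labels do not give. Each treatment in SK-LMS-1 was compared with the DMSO set of the same number, whereas in SK-UT-1B the set and the treatment cannot be told apart. No library held gemcitabine or docetaxel alone, SK-UT-1B had none with MK-0752 alone, and the labels do not say whether the 2 libraries of a group came from separate cultures, so p-values measure the spread between these libraries.

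MK-0752 inhibits gamma secretase, the protease that releases the active fragment of Notch receptors. Gemcitabine mimics deoxycytidine, stops the growing DNA strand, and inhibits ribonucleotide reductase, and docetaxel stabilizes microtubules. A cell copies its DNA once in a cycle. In G1, the origin recognition complex with CDC6 and CDT1 loads the MCM2-7 ring onto DNA (origin licensing). In S phase, CDC45, the GINS complex, and MCM10 turn the ring into the active helicase, polymerase alpha with primase lays down primers, PCNA is loaded by replication factor C to hold polymerases delta and epsilon, and the Okazaki fragments of the lagging strand are trimmed and joined. TYMS makes thymidylate from deoxyuridylate, and TK1 makes it from thymidine. Many of these genes are known targets of the E2F factors, which RB holds in check, and their RNA is high in cycling cells. In bulk RNA, fewer cells in S phase and less RNA per cell cannot be told apart. By flow cytometry, the study reported a larger share of cells in S phase than after DMSO for each treatment sequenced here. The part of this in the RNA levels was not tested.

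Because E2F sites are known in many of these promoters, RefSeq promoter sequences (GRCh38.p14, 250 bases before to 50 bases after the start) were searched on both strands for 4 E2F words, TTTCCCGC, TTTCGCGC, TTTGCCGC, and TTTGGCGC. Of the 40 genes 33 matched a promoter, and 17 of these (51.5%) held at least 1 word, whereas 908 of all 27305 promoters (3.33%) did. Of the other lists, 9 of 35 other replication factors, 7 of 25 E2F and RB regulators, 1 of 25 other deoxynucleotide and folate enzymes, and 2 of 10 proliferation markers with a promoter sequence held one. The sequence CCAAT, on either strand, was in 19 of the 33 (57.6%) and in 35.7% of all promoters. Printed here are the 120 bases before the start of 4 genes, chosen to show the word in origin licensing (MCM6 and CDT1), in the clamp, and in thymidylate synthase, each read 5′ to 3′ on the strand of its gene, with the E2F words in capitals. They are MCM6 at chr2:135876444-135876563 (minus strand), CDT1 at chr16:88803669-88803788 (plus strand), PCNA at chr20:5126623-5126742 (minus strand), and TYMS at chr18:657533-657652 (plus strand).
MCM6: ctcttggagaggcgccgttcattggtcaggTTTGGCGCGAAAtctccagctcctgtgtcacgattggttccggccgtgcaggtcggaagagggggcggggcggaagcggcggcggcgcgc
CDT1: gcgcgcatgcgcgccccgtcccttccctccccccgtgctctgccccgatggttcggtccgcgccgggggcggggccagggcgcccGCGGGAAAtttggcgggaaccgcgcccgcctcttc
PCNA: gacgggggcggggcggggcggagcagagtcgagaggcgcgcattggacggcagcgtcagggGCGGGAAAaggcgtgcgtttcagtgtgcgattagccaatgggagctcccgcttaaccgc
TYMS: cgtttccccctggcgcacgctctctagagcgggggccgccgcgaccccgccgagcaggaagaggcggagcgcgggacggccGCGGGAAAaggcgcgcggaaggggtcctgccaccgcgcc
The word begins 35 bases before the start in CDT1, 59 in PCNA, and 39 in TYMS. In MCM6 the capitals are 2 overlapping words on opposite strands, and 2 more lie farther upstream. No word was found in the window of TK1, FEN1, ORC1, or MCM10, which says only that these letters are not there.

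Levels are given as CPM, counts scaled to library size with TMM factors. Fold changes are log2FC from the quasi-likelihood test of edgeR, and p-values were adjusted over all 21114 genes by the Benjamini-Hochberg method. A gene was called when its adjusted p was under 0.05. Total counts lay between 25250057 and 40709885 per library. Smooth muscle markers were incomplete in both lines, but most were higher in SK-LMS-1. Of the 10 tested, 8 were called higher and 1 lower in its DMSO libraries, against 21.5% and 19.5% of all genes. Their summed level after DMSO averaged 606.5 CPM in SK-LMS-1 and 116.6 CPM in SK-UT-1B. MYH11 reached at most 0.15 CPM in any of the 12 libraries, and DES was at 0 in every SK-LMS-1 library, while CALD1 lay between 307 and 399 CPM in SK-LMS-1 and between 42.8 and 46.7 CPM in SK-UT-1B. The 10 epithelial markers summed to 0.637 to 3.58 CPM in the SK-UT-1B libraries and 179.4 to 277.5 CPM in the SK-LMS-1 libraries. Of the 8 that were tested, 5 (the keratins KRT7, KRT8, KRT18 and KRT19 and the claudin CLDN4) passed the test as higher in the DMSO libraries of SK-LMS-1 and 0 passed it as lower, while the epithelial cadherin CDH1 was at 0 in every SK-LMS-1 library. Their part in the results was not tested. The summed leukocyte markers reached at most 5.22 CPM in any library.

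**Figure D1:**
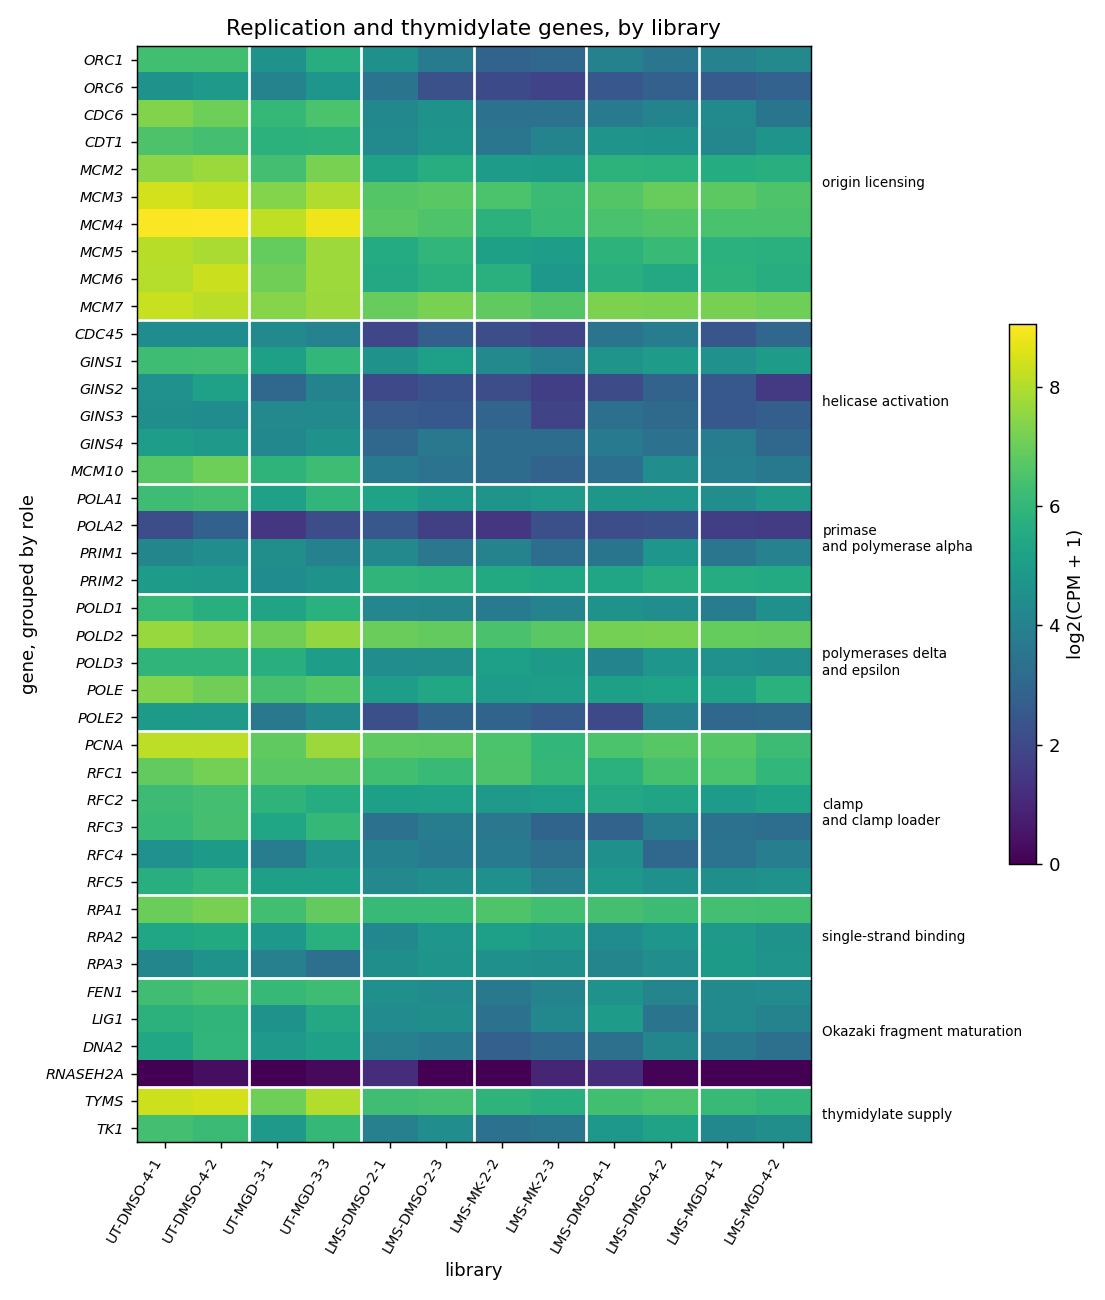
Heat map of log2(CPM + 1) of the 40 genes (rows, grouped by role) in the 12 libraries (columns, grouped by line and treatment, UT for SK-UT-1B, LMS for SK-LMS-1, MK for MK-0752, MGD for the combination). The 4 SK-UT-1B columns are brighter for most genes, with a summed level of 4528 and 4581 CPM after DMSO, and RNASEH2A is at or near 0 throughout.

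The 40 genes together took 4528 and 4581 CPM in the SK-UT-1B DMSO libraries and 1414, 1479, 1458, and 1576 CPM in those of SK-LMS-1. The level in SK-UT-1B was 3.07 times that in SK-LMS-1, and the libraries of the lines did not overlap. The ratio was highest for helicase activation (4.19), thymidylate supply (3.95), and origin licensing (3.93). It was lowest for primase and polymerase alpha (1.31) and for the single-strand binding protein RPA (1.69). These sums give abundant genes more weight, and MCM10 alone held 118 of the 293 CPM of helicase activation in the SK-UT-1B DMSO libraries. The median log2FC over genes, negative where SK-LMS-1 was lower, gave another order at the top. It was -2.125 for origin licensing, -1.88 for thymidylate supply, and -1.658 for helicase activation. Primase and polymerase alpha (-0.319) and RPA (-0.889) were again the least different. RNASEH2A, a subunit of the ribonuclease that removes RNA from DNA, had between 0 and 44 counts in any library and 0 in 6 of them. It shares 1095 of its 2056 exonic bases on the same strand with THSD8, which was at 0 in every library, and the part of this overlap in its counts was not tested. No fold change is given for it, and medians are over the other 39 genes.

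Levels can be compared between genes only per length, here as CPM per kb of the canonical GENCODE v44 transcript. In SK-UT-1B after DMSO, PCNA (220 ± 0.522) and TYMS (211 ± 11.0, both SD, n = 2) had the highest levels per kb. They were followed by MCM4 (128 ± 2.72), MCM7 (118 ± 10.8), the polymerase delta subunit POLD2 (113 ± 16.3), and MCM3 (104 ± 9.88). GINS4 (8.17 ± 0.735) and POLA2 (1.33 ± 0.517) were lowest apart from RNASEH2A. In SK-LMS-1 after DMSO, POLD2 (82.0 ± 8.56, SD, n = 4) and PCNA (80.0 ± 7.98) came first, then MCM7 (58.3 ± 5.78) and TYMS (50.1 ± 2.93). Of the 39 pairs of neighbours in the order, 8 in SK-UT-1B and 3 in SK-LMS-1 were apart by more than their SDs, so most adjacent ranks cannot be separated. The genes that moved most in the order were CDC6, which loads the MCM ring (14th of 40 in SK-UT-1B and 32nd in SK-LMS-1), PRIM2, the large primase subunit (32nd and 8th), and RPA3, the small RPA subunit (36th and 19th).

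**Figure D2:**
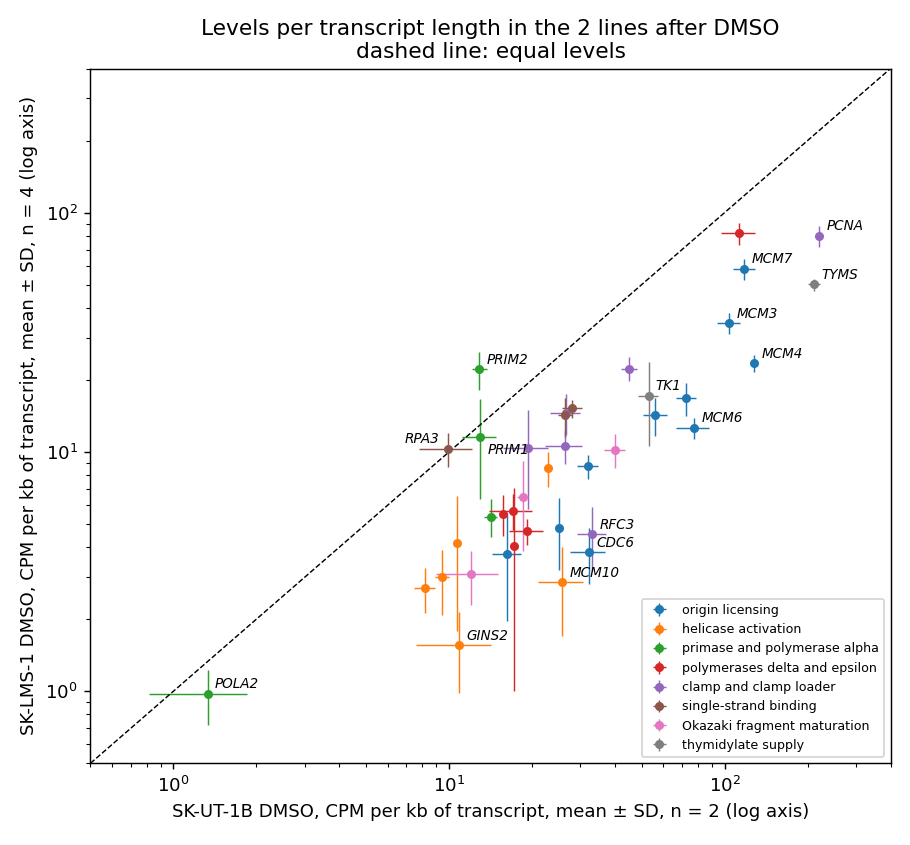
Level per kb of transcript of 39 genes after DMSO in SK-UT-1B (x axis, mean ± SD, n = 2) and SK-LMS-1 (y axis, mean ± SD, n = 4), both on log axes, with points colored by role and RNASEH2A left out. PCNA, TYMS, and the MCM genes lie below the line of equal levels, while PRIM2 (12.9 and 22.2) lies above it.

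The first comparison asked how the lines differ after DMSO. With SK-UT-1B as the reference, 34 of the 40 genes were lower in SK-LMS-1 and 1 was higher, against 19.5% of all tested genes called lower and 21.5% called higher. With an absolute log2FC of at least 1 required as well, 30 were lower, against 14.1% of all genes. The median log2FC of the 39 genes was -1.60, with a range from -3.19 to 0.76, and the median of all tested genes was 0. The libraries of the lines did not overlap, with SK-LMS-1 below, for 35 of the genes and for 26.6% of all genes, and with SK-LMS-1 above for 1 and for 25.3%.

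All 10 origin licensing genes were called lower in SK-LMS-1. MCM4, a subunit of the MCM ring, had 513 and 528 CPM in SK-UT-1B and 106, 94.0, 87.0, and 94.6 CPM in SK-LMS-1, which gave the lowest adjusted p of the set (log2FC -2.45 ± 0.15 (SE), adjusted p = 8.95e-11). CDC6 had 162 and 131 CPM in SK-UT-1B and between 12.7 and 23.7 CPM in SK-LMS-1 (log2FC -3.10 ± 0.23, adjusted p = 7.71e-10). The SK-LMS-1 libraries were thus 8.56 times lower in the fit, with no library of either line near the other. MCM5 had 267 and 236 CPM in SK-UT-1B and 46.3, 61.0, 56.9, and 68.0 CPM in SK-LMS-1 (log2FC -2.12 ± 0.19, adjusted p = 1.20e-08). MCM2 had 179 and 206 CPM in SK-UT-1B and 36.5, 48.4, 56.9, and 53.4 CPM in SK-LMS-1 (log2FC -1.99 ± 0.20, adjusted p = 6.58e-08). ORC1, the largest subunit of the origin recognition complex (log2FC -2.39), and CDT1 (log2FC -1.88) were lower as well.

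Among the subunits of the MCM ring, MCM6 had the lowest log2FC (-2.62 ± 0.23) and MCM7 the one nearest to 0 (-1.03 ± 0.14). In SK-UT-1B after DMSO the most and the least abundant MCM subunit per kb differed 2.42-fold in library 4-1 and 2.17-fold in library 4-2. In the SK-LMS-1 DMSO libraries they differed between 4.32-fold and 5.25-fold. MCM7 led in each of these 4 libraries, with 49.7 to 62.0 CPM per kb, while MCM2 or MCM6 was last, with 10.6 to 14.1. MCM7 shares 29 exonic bases with MIR93 on its strand and 392 with AP4M1 on the other, and the part of these in its counts was not tested.

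All 6 helicase activation genes were called lower in SK-LMS-1 too. MCM10, which helps the helicase to start unwinding, had 102 and 133 CPM in SK-UT-1B and 12.6, 9.78, 8.97, and 20.4 CPM in SK-LMS-1 (log2FC -3.19 ± 0.26, adjusted p = 5.50e-09), the lowest log2FC of the set. Of the GINS subunits, which sit beside the MCM ring in a complex of 4, GINS2 was lowest (log2FC -2.82) and the other 3 lay between -1.71 and -1.41. CDC45, the remaining partner of the active helicase, had a log2FC of -1.53.

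The polymerases showed both the genes with large differences and the exceptions. POLE, the catalytic subunit of the leading strand polymerase, had 165 and 136 CPM in SK-UT-1B and 31.6, 42.3, 34.7, and 37.2 CPM in SK-LMS-1 (log2FC -2.05 ± 0.19, adjusted p = 2.13e-08). All 5 genes of polymerases delta and epsilon were called lower, the least of them POLD2 (log2FC -0.47), which lost its call without the SK-UT-1B DMSO library 4-1. Of polymerase alpha and primase, only POLA1, the catalytic subunit of polymerase alpha, was called lower (log2FC -1.41). PRIM2 went the other way, with 31.1 and 28.5 CPM in SK-UT-1B and 59.4, 57.1, 39.1, and 48.8 CPM in SK-LMS-1 (log2FC 0.76 ± 0.20, adjusted p = 0.00434), the only gene of the set called higher. Its partner PRIM1 (-0.19 ± 0.38, adjusted p = 0.752) and the accessory subunit POLA2 (-0.45 ± 0.79, adjusted p = 0.708) were not called. The call of PRIM2 was lost without the SK-UT-1B DMSO library 4-2, and each of the other alternatives run kept it. PRIM1 shares 501 of its 3309 exonic bases on the same strand with other genes, among them NACA, which had between 178 and 451 CPM, and the part of this in its counts was not tested.

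Of the clamp and its loader, 5 of 6 were called lower in SK-LMS-1. PCNA (chr20:5114953-5126626 on the minus strand of hg38) had 280 and 281 CPM in SK-UT-1B and 110, 109, 87.6, and 103 CPM in SK-LMS-1 (log2FC -1.46 ± 0.21, adjusted p = 2.49e-05). RFC3 stood apart among the 5 loader subunits, with 69.6 and 82.9 CPM in SK-UT-1B and 9.46, 13.1, 6.45, and 12.9 CPM in SK-LMS-1 (log2FC -2.87 ± 0.29, adjusted p = 1.02e-07). The other 4 loader subunits had log2FC between -1.32 and -0.86, and RFC4 was not called (adjusted p = 0.0698). RPA1 (-0.89) and RPA2 (-0.90), the 2 larger subunits of the single-strand binding protein, were called lower, and RPA3 (0.05 ± 0.28, adjusted p = 0.972) was not. Of the enzymes that finish Okazaki fragments, FEN1, the flap endonuclease (-1.98), DNA2, a helicase and nuclease (-1.96), and LIG1, the ligase (-1.50), were all called lower.

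Both thymidylate enzymes were called lower in SK-LMS-1. TYMS (chr18:657653-673578, plus strand) had 329 and 354 CPM in SK-UT-1B and 77.1, 79.3, 79.2, and 87.8 CPM in SK-LMS-1 (log2FC -2.08 ± 0.18, adjusted p = 3.07e-08). TK1 (chr17:78174091-78187233, minus strand) had 80.3 and 71.4 CPM in SK-UT-1B and 14.3, 20.9, 27.2, and 36.4 CPM in SK-LMS-1 (log2FC -1.68 ± 0.27, adjusted p = 2.98e-05). TYMS was nearly even over the 4 SK-LMS-1 libraries, whereas TK1 was lower in both libraries of DMSO set 2 than in both of set 4. The exons of TYMS share 1160 bases with ENOSF1 (11.4 to 23.7 CPM) and TYMSOS (0 to 7.60 CPM) on the other strand, and their part in its counts was not tested.

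Other lists had negative medians between the lines as well. Of 40 other replication factors 28 were lower in SK-LMS-1 and 1 was higher (median log2FC -1.21), of 29 other deoxynucleotide and folate enzymes 18 were lower and 5 higher (median -0.70), and of 31 E2F and RB regulators 16 were lower and 5 higher (median -0.55). Of 14 proliferation markers 10 were lower and 0 higher (median -1.06), among them MKI67 (log2FC -1.44, adjusted p = 5.06e-09). The ribonucleotide reductase subunits RRM1 and RRM2 had log2FC of -1.10 (adjusted p = 1.74e-05) and -0.64 (adjusted p = 0.00106). The part of the share of cycling cells in the difference between the lines was not tested. Among the genes with a promoter sequence, RNASEH2A left out, the 17 with an E2F word had a median log2FC of -1.88 and the 15 without one a median of -1.32, given as a description. Under the treatments described below, the medians with and without a word were -0.75 and -0.43 for the combination in SK-UT-1B, -0.37 and -0.38 for MK-0752 in SK-LMS-1, and -0.15 and -0.21 for the combination in SK-LMS-1, so the order of these medians was not the same in every comparison.

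**Figure D3:**
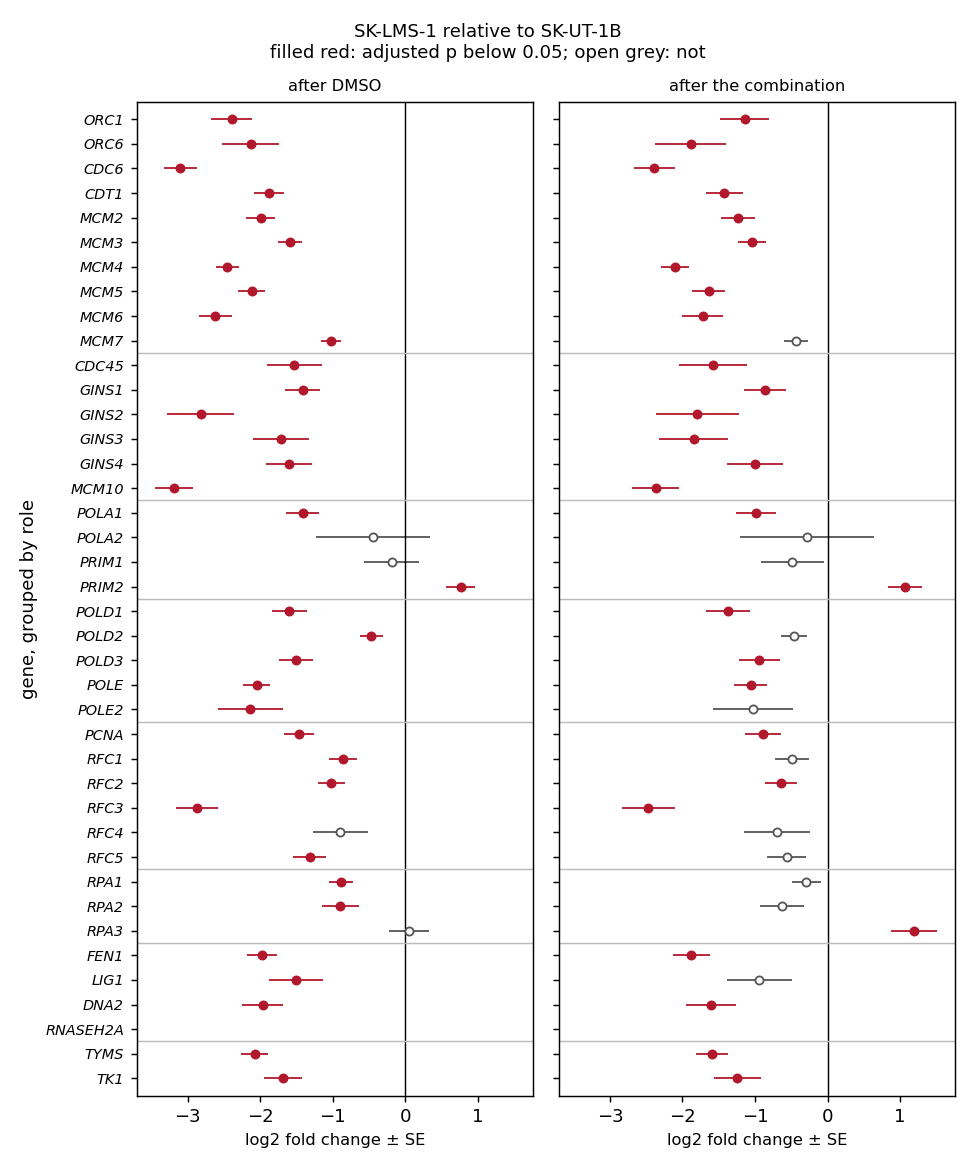
log2FC ± SE between the lines, negative where SK-LMS-1 was lower, for 39 genes grouped by role after DMSO (left) and after the combination (right), with filled red points for an adjusted p under 0.05 and RNASEH2A left out. Most points lie left of 0 in both panels, and PRIM2 lies right of 0 in both (0.76 and 1.07).

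After the combination, 26 of the 40 genes were lower in SK-LMS-1 and 2 were higher, against 13.6% and 19.3% of all tested genes. The libraries did not overlap, with SK-LMS-1 below, for 32 genes and 30% of all genes, and above for 2 and 34.6%, and the median log2FC was -1.04. MCM4 had 286 and 454 CPM in SK-UT-1B and 86.4 and 85.6 CPM in SK-LMS-1 (log2FC -2.11 ± 0.19, adjusted p = 3.26e-08). CDC6 (-2.39, adjusted p = 1.13e-06), RFC3 (-2.47, adjusted p = 2.04e-05), MCM10 (-2.37, adjusted p = 9.18e-06), and FEN1 (-1.88, adjusted p = 7.88e-06) were again far apart. MCM5 (-1.64, adjusted p = 9.27e-06), TYMS (-1.59, adjusted p = 1.72e-05), and CDT1 (-1.42, adjusted p = 2.15e-04) were also among the 8 with the lowest p. For TK1 the log2FC was -1.24 ± 0.32 (adjusted p = 0.00497) and for PCNA -0.89 ± 0.25 (adjusted p = 0.0107). Both lost the call when only the libraries of this comparison were fitted, with an edgeR adjusted p of 0.0677 for TK1 and 0.0823 for PCNA. Both also lost it without SK-UT-1B library 3-3, with log2FC of -0.53 and -0.40, and the number of genes called lower was then 18, against 11.3% of all genes.

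The 2 genes that were higher in SK-LMS-1 after the combination were PRIM2 and RPA3. RPA3 had 14.5 and 9.05 CPM in SK-UT-1B and 29.2 and 24.5 CPM in SK-LMS-1 (log2FC 1.19 ± 0.32, adjusted p = 0.00676). PRIM2 had 20.0 and 24.3 CPM in SK-UT-1B and 48.0 and 44.9 CPM in SK-LMS-1 (log2FC 1.07 ± 0.23, adjusted p = 9.52e-04). RPA3 was not called without SK-LMS-1 combination library 4-1 or without SK-UT-1B library 3-3.

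The next comparison asked what the combination did in SK-UT-1B. Its DMSO libraries also entered the comparison of the lines, so these results are not independent of each other. Every one of the 39 genes had a negative log2FC relative to DMSO, with a median of -0.62 and a range from -1.35 to -0.04, whereas 42.5% of all tested genes had one and their median was 0. No gene of the set passed the threshold in edgeR, against 0.251% of all genes called lower and 0.464% higher. DESeq2 called 2, MCM7 and TYMS, against 1% of all genes called lower and 1.29% higher by that tool. At an unadjusted p under 0.05, 21 of the 40 were lower and 0 were higher, against 5.08% and 5.41% of all genes. Both combination libraries lay below both DMSO libraries for 33 of the genes and above for 0, against 15.4% and 16.7% of all genes.

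TYMS had 329 and 354 CPM after DMSO and 133 and 256 CPM after the combination (log2FC -0.81 ± 0.22, adjusted p = 0.121). TK1 had 80.3 and 71.4 CPM after DMSO and 27.9 and 63.5 CPM after the combination (log2FC -0.73 ± 0.32, adjusted p = 0.401). PCNA had 280 and 281 CPM after DMSO and 113 and 204 CPM after the combination (log2FC -0.82 ± 0.25, adjusted p = 0.178). In each of these 3 genes the groups did not overlap, and library 3-1 lay farther from DMSO than library 3-3. MCM7, with the lowest p of the set, had 311 and 274 CPM after DMSO and 168 and 205 CPM after the combination (log2FC -0.65 ± 0.17, adjusted p = 0.0886). CDC6 had 162 and 131 CPM after DMSO and 64.6 and 87.8 CPM after the combination (log2FC -0.95 ± 0.27, adjusted p = 0.131). Over the alternatives the adjusted p of MCM7 ran from 0.00215 to 0.598, that of TYMS from 7.22e-08 to 0.604, and that of CDC6 from 0.00351 to 0.586.

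The 2 combination libraries of SK-UT-1B stood apart from each other. The summed level of the 40 genes was 2428 CPM in library 3-1 and 3538 CPM in library 3-3, and 33 of the 40 were lower in 3-1, with a median log2 ratio of -0.58. Of all 13358 genes with a mean of at least 1 CPM in this group, 50.1% were lower in 3-1. In the other 5 groups the first library was the lower one for 16 to 25 of the 40 genes. The summed proliferation markers also differed between these libraries, with 1945 CPM in 3-1 and 2665 CPM in 3-3, and their part in the level of the 40 genes was not tested. Without library 3-3, 3.77% of all genes and 17 of the 40 were called lower, among them TYMS (log2FC -1.36), PCNA (-1.31), and TK1 (-1.44). Without library 3-1, 0.883% of all genes and none of the 40 were called lower, and the log2FC of these 3 genes were -0.44, -0.49, and -0.29. The median of the 39 genes was -0.86 without library 3-3 and -0.40 without library 3-1, with 38 and 37 of them negative. Without DMSO library 4-1 or 4-2, 3 of the 40 were called in each case, against 0.93% and 0.932% of all genes called lower.

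By role, the sums after the combination were between 57.6% of the DMSO level for thymidylate supply and 75.1% for RPA. In library 3-1 alone thymidylate supply was lowest, at 38.5%, whereas in library 3-3 it was at 76.6% and helicase activation was lowest, at 71.3%. Over both libraries, origin licensing was at 63.9%, helicase activation at 62.0%, clamp and clamp loader at 65.6%, primase and polymerase alpha at 69.4%, Okazaki fragment maturation at 71.0%, and polymerases delta and epsilon at 74.6%. The lowest log2FC of single genes were those of GINS2 (-1.35 ± 0.56, adjusted p = 0.361) and ORC1 (-1.09 ± 0.34, adjusted p = 0.173). Those nearest to 0 were PRIM1 (-0.04 ± 0.44) and RPA2 (-0.07 ± 0.30). Of the other deoxynucleotide enzymes, RRM2 (log2FC -0.90, adjusted p = 0.0139) and RRM1 (-0.89, adjusted p = 0.0417) fell in the same libraries, and they were the 2 of 29 called lower. Of the E2F and RB regulators, CCNA2, the S phase cyclin A, fell (-1.17, adjusted p = 0.0365) and CDKN1A, the inhibitor p21 of cyclin-dependent kinases, rose (1.18, adjusted p = 0.0391). These 4 calls were lost when only the libraries of the comparison were fitted, with edgeR adjusted p of 0.586 for RRM2, 0.598 for RRM1, 0.586 for CCNA2, and 0.592 for CDKN1A, and no gene of all tested was then called. With a mean of at least 50 counts the call was lost for RRM1 (adjusted p = 0.0732), CCNA2 (0.0675), and CDKN1A (0.0691), and with protein-coding genes alone for RRM1 (0.0528). It was also lost for RRM1 without combination library 3-1 (log2FC -0.58, adjusted p = 0.115) and for CDKN1A without DMSO library 4-2 (0.90, adjusted p = 0.14). Of 40 other replication factors 0 passed the threshold, and 33 had a negative log2FC. MKI67 had a log2FC of -0.57 (adjusted p = 0.0787).

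**Figure D4:**
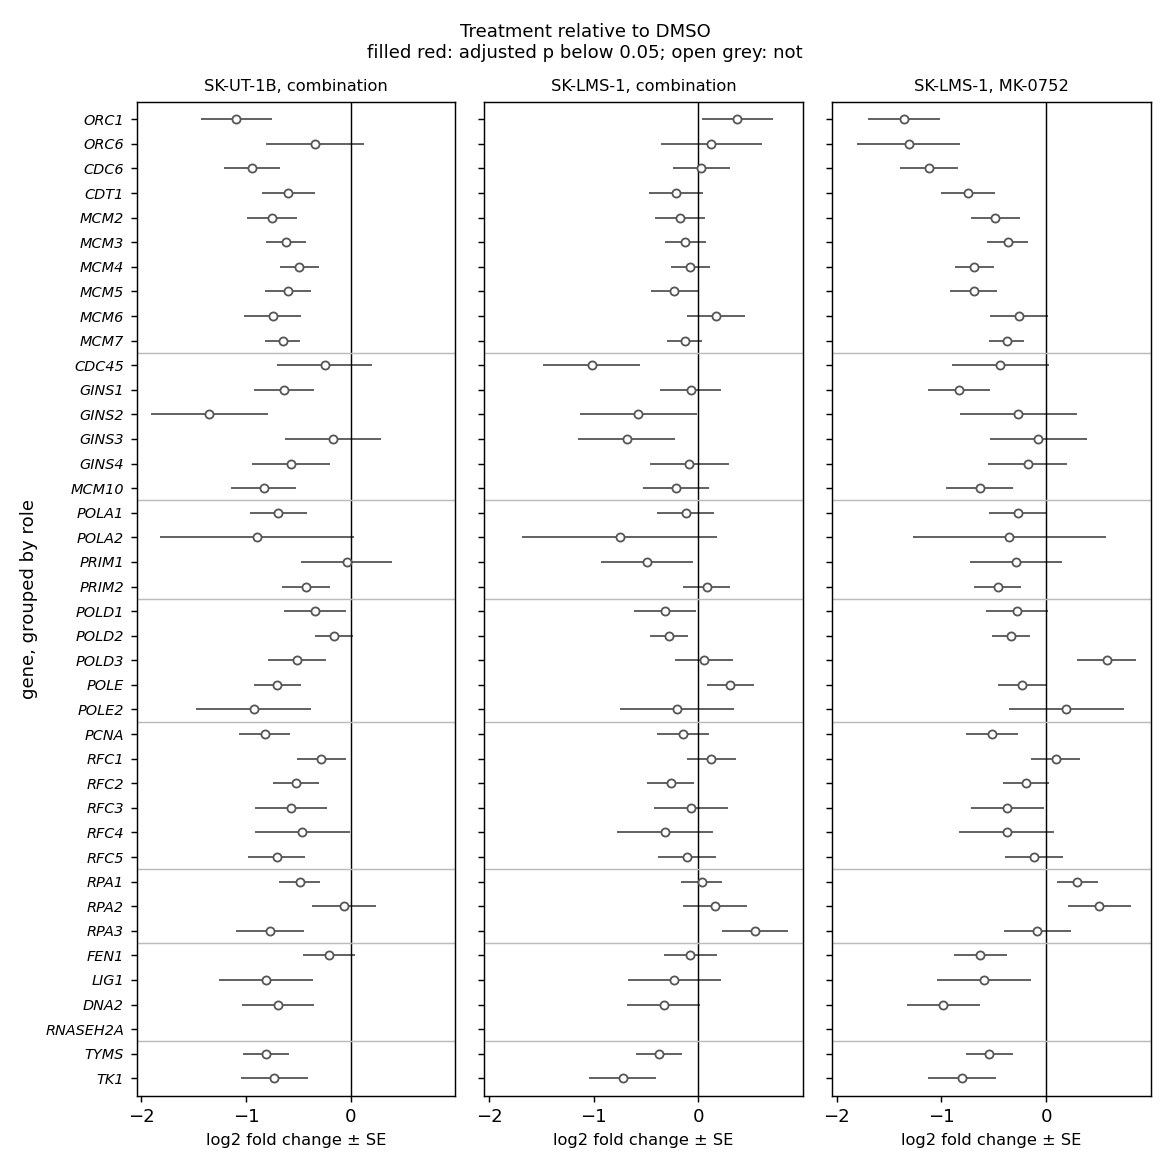
log2FC ± SE relative to DMSO of 39 genes grouped by role, for the combination in SK-UT-1B (left), the combination in SK-LMS-1 (middle), and MK-0752 in SK-LMS-1 (right), where open points mark an adjusted p of 0.05 or more and RNASEH2A is left out. All 39 points lie left of 0 in SK-UT-1B, 28 do for the combination in SK-LMS-1, and 34 do for MK-0752.

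MK-0752 alone was compared with DMSO set 2 in SK-LMS-1. The median log2FC of the 39 genes was -0.37, with a range from -1.36 to 0.58, and 34 of them were negative, against 45.8% of all tested genes. No gene of the set passed the threshold in edgeR, against 0.279% of all genes called lower and 0.0853% higher, and DESeq2 called 1, CDC6, against 0.592% of all genes called lower. At an unadjusted p under 0.05, 12 of the 40 were lower and 0 were higher, against 3.94% and 2.48% of all genes. Both MK-0752 libraries lay below both DMSO libraries for 22 genes and above them for 3, against 17.5% and 16.9% of all genes. The summed epithelial markers had 226.6 and 271.8 CPM in DMSO set 2 and 179.4 and 190.3 CPM after MK-0752. Of the 8 tested 0 were called, and their part in the change of the 40 genes was not tested.

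The 3 genes with the lowest p belong to origin licensing. CDC6 had 17.5 and 23.7 CPM after DMSO and 9.31 and 9.65 CPM after MK-0752 (log2FC -1.12 ± 0.28, adjusted p = 0.113). ORC1 had 22.0 and 12.4 CPM after DMSO and 6.28 and 7.17 CPM after MK-0752 (log2FC -1.36 ± 0.35, adjusted p = 0.135). MCM4 had 106 and 94.0 CPM after DMSO and 55.7 and 68.4 CPM after MK-0752 (log2FC -0.69 ± 0.19, adjusted p = 0.202). The groups did not overlap for any of the 3. Without DMSO library 2-1 only CDC6 was called and without DMSO library 2-3 only ORC1, against 0.407% and 0.531% of all genes called lower. Over the alternatives the adjusted p of CDC6 ran from 0.0023 to 0.198, that of ORC1 from 9.23e-04 to 0.905, and that of MCM4 from 0.0188 to 0.687.

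TYMS had 77.1 and 79.3 CPM after DMSO and 57.7 and 49.8 CPM after MK-0752 (log2FC -0.54 ± 0.22, adjusted p = 0.641). TK1 had 14.3 and 20.9 CPM after DMSO and 9.54 and 10.6 CPM after MK-0752 (log2FC -0.80 ± 0.33, adjusted p = 0.622). PCNA had 110 and 109 CPM after DMSO and 89.6 and 63.2 CPM after MK-0752 (log2FC -0.52 ± 0.25, adjusted p = 0.793). For each of these genes both MK-0752 libraries were below both DMSO libraries.

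The sums by role after MK-0752 were 62.0% of DMSO set 2 for Okazaki fragment maturation, 66.6% for thymidylate supply, 68.4% for helicase activation, and 69.6% for origin licensing. Okazaki fragment maturation was at 48.7% in library 2-2 and 75.4% in library 2-3, where helicase activation was lowest (58.4%). The sums were 89.0% for polymerases delta and epsilon and 121% for RPA. The 3 genes whose MK-0752 libraries both lay above DMSO were RPA1 (log2FC 0.30 ± 0.20), RPA2 (0.51 ± 0.31), and POLD3, an accessory subunit of polymerase delta (0.58 ± 0.28), and none of the 3 was called. In the same comparison RRM2 fell (log2FC -1.17, adjusted p = 0.00226), as did MKI67 (-0.91, adjusted p = 0.00488) and the Notch target HES1 (-2.76, adjusted p = 0.0153). The summed proliferation markers were at 59.5% of DMSO, with 3 of 14 called lower (MKI67, CCNB1, and FOXM1). MKI67 kept its call under each alternative run. CCNB1 lost it with a mean of at least 50 counts (edgeR adjusted p = 0.0771) and with protein-coding genes alone (0.0565). It was also not called without MK-0752 library 2-2 (log2FC -0.94). FOXM1 was not called without DMSO library 2-3 (log2FC -0.77) or without MK-0752 library 2-2 (-0.79) or 2-3 (-0.88). Of 40 other replication factors, 1 was called lower and 36 had a negative log2FC. Of 31 E2F and RB regulators, 1 was called lower, E2F8 (log2FC -1.55, adjusted p = 0.0466), and 21 had a negative log2FC. E2F8 was not called with a mean of at least 50 counts (edgeR adjusted p = 0.0887) or with protein-coding genes alone (0.0646). Its call was also lost with the libraries of the comparison alone (0.113) and with both DMSO sets merged (0.0923). The same held without DMSO library 2-1 (log2FC -1.37) or MK-0752 library 2-3 (-1.50).

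The combination was compared with DMSO set 4 in SK-LMS-1. The 39 genes had a median log2FC of -0.13 and a range from -1.02 to 0.54, and 28 were negative, against 39.4% of all tested genes, whose median was 0.03. Without DMSO library 4-2 the median of the 39 genes was -0.01 and 21 were negative. No gene of the set was called by edgeR or DESeq2, against 0.00947% of all genes called lower and 0.0142% higher by edgeR and 0.0568% and 0.123% by DESeq2. At an unadjusted p under 0.05, 2 of the 40 were lower and 0 higher by edgeR, against 1.16% and 3.17% of all genes. Both combination libraries lay below both DMSO libraries for 12 genes, of which RNASEH2A is 1, and above them for 2, against 11.4% and 21% of all genes.

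TK1 had 27.2 and 36.4 CPM after DMSO and 17.7 and 20.9 CPM after the combination (log2FC -0.72 ± 0.32, adjusted p = 0.907). CDC45 had 10.2 and 12.8 CPM after DMSO and 4.42 and 6.94 CPM after the combination (log2FC -1.02 ± 0.46, adjusted p = 0.907). These were the 2 genes with an unadjusted p under 0.05. RNASEH2A had the third lowest p and 31 and 2 counts after DMSO against 0 and 0 after the combination. TYMS had 79.2 and 87.8 CPM after DMSO and 67.3 and 61.4 CPM after the combination (log2FC -0.38 ± 0.22, adjusted p = 0.907). PCNA had 87.6 and 103 CPM after DMSO and 99.2 and 72.1 CPM after the combination (log2FC -0.15 ± 0.25, adjusted p = 1), so its groups overlapped. TK1 and CDC45 are also the genes that differed most between the DMSO sets. CDC45 had 2.78 and 5.62 CPM in set 2 against 10.2 and 12.8 CPM in set 4 (log2FC of set 4 relative to set 2 of 1.46 ± 0.47, adjusted p = 0.794), and the TK1 libraries of the sets did not overlap either (0.86 ± 0.32, adjusted p = 0.794). When both DMSO sets served as 1 control group, 0 genes had an unadjusted p under 0.05. Between the DMSO sets no gene of the 40 was called by edgeR or DESeq2, against 0% of all genes by edgeR and 0.0853% lower and 0.0379% higher by DESeq2. At an unadjusted p under 0.05, 2 were higher in set 4 and 0 lower, against 2.14% and 3.53% of all genes. Set 4 lay above set 2 for 9 genes and below it for 5, against 12% and 17.5% of all genes, and CDC6 had the third lowest p (log2FC -0.53 ± 0.27, adjusted p = 0.794).

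Thymidylate supply was the role with the lowest sum after the combination in SK-LMS-1, at 72.5% of DMSO, and RPA was the highest, at 111%. Origin licensing was at 93.7%. ORC1 and RPA3 were the genes whose combination libraries both lay above DMSO, with 15.0 and 18.0 CPM against 14.9 and 10.7 CPM for ORC1 (log2FC 0.37 ± 0.34) and 29.2 and 24.5 CPM against 16.5 and 20.4 CPM for RPA3 (0.54 ± 0.32). HES1 fell (log2FC -3.37, adjusted p = 0.0227), but was not called with a mean of at least 50 counts (edgeR adjusted p = 0.117) or with the libraries of the comparison alone (0.478). None of the 40 other replication factors, the 29 deoxynucleotide and folate enzymes, the 31 E2F and RB regulators, or the 14 proliferation markers passed the threshold. Of the E2F and RB regulators 24 had a positive log2FC, and of the proliferation markers 13 had a negative one. The summed proliferation markers were at 79.9% of DMSO set 4, and their part in the level of the 40 genes was not tested.

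**Figure D5:**
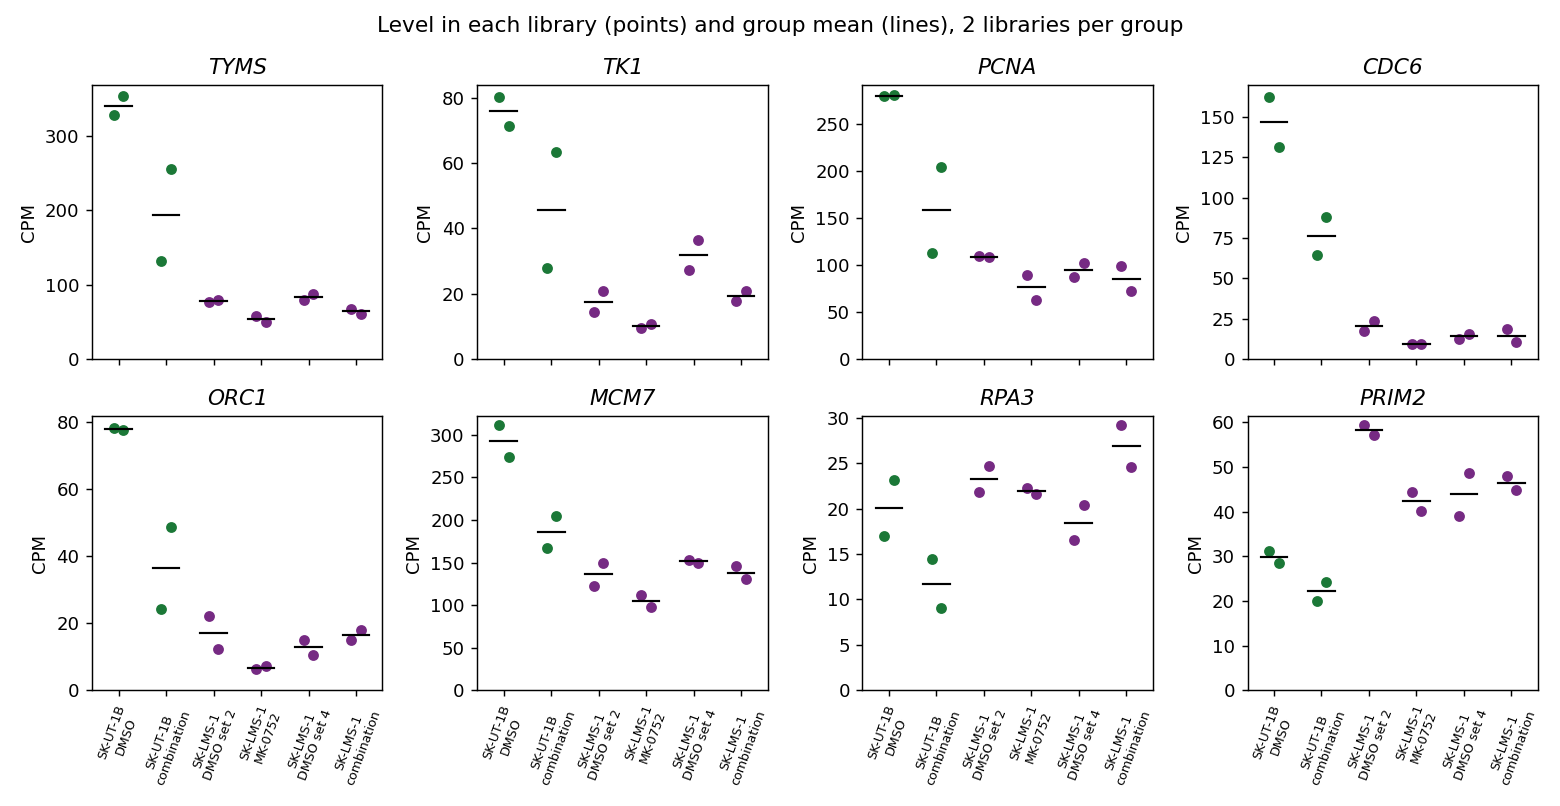
CPM of 8 genes in each library (points, green for SK-UT-1B, purple for SK-LMS-1) with the mean of each group of 2 (lines), on linear axes that start at 0. TYMS, TK1, PCNA, CDC6, ORC1, and MCM7 are highest in SK-UT-1B after DMSO, while PRIM2 is higher in every SK-LMS-1 library than in any SK-UT-1B library.

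The difference between the effects of the combination in the lines was tested directly. The agents were given at a set inhibitory level for each line, and per the study's methods their concentrations in the combination were lower in SK-UT-1B than in SK-LMS-1, so line and concentration cannot be told apart here. The log2FC in SK-UT-1B minus that in SK-LMS-1 was negative for 35 of the 39 genes, with a median of -0.50, while 52.9% of all genes were negative. The median was -0.22 without SK-UT-1B library 3-1 and -0.78 without library 3-3, with 30 and 36 genes negative. No gene was called by edgeR, against 0.0853% of all genes called lower and 0.147% higher, or by DESeq2, against 0.298% and 0.369%. At an unadjusted p under 0.05, 6 genes were lower by edgeR and 0 higher, against 4.45% and 3.22% of all genes, and the 6 were POLE, ORC1, RPA3, CDC6, MCM6, and MCM7. POLE had a difference of -1.01 ± 0.32 (adjusted p = 0.433). Its level went from 165 and 136 to 85.1 and 99.6 CPM in SK-UT-1B, and from 34.7 and 37.2 to 34.9 and 53.9 CPM in SK-LMS-1. ORC1 had a difference of -1.46 ± 0.48 (adjusted p = 0.436), and went from 78.2 and 77.6 to 24.4 and 48.7 CPM in SK-UT-1B. RPA3 had a difference of -1.31 ± 0.45 (adjusted p = 0.476). The differences were -0.44 ± 0.31 for TYMS (adjusted p = 0.81), -0.67 ± 0.35 for PCNA (adjusted p = 0.669), and -0.01 ± 0.45 for TK1 (adjusted p = 1). Without SK-UT-1B library 3-3, 9 genes were called, among them PCNA and TYMS, against 2.37% of all genes called lower, and without library 3-1 none was, against 0.825%. Without SK-LMS-1 DMSO library 4-1 only ORC1 was called, and without SK-LMS-1 combination library 4-1 only POLE, against 0.889% and 0.571% of all genes called lower. Over the alternatives the adjusted p ran from 0.0205 to 0.925 for POLE, from 0.00229 to 0.61 for ORC1, and from 0.127 to 0.814 for RPA3.

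In SK-LMS-1 the effect of MK-0752 was compared with that of the combination, each relative to its own DMSO set. Per the study's methods MK-0752 was given at a higher concentration alone than in the combination, so this is not the effect of adding gemcitabine and docetaxel at a matched dose. The median difference of the 39 genes was -0.24, and no gene was called by edgeR or DESeq2, against 0.0332% of all genes called lower and 0.00474% higher by edgeR and 0.142% and 0.071% by DESeq2. At an unadjusted p under 0.05, 4 were lower and 0 higher by edgeR, against 3.62% and 1.56% of all genes. The 4 were ORC1, CDC6, MCM4, and ORC6, all of origin licensing. All 4 had a lower mean in DMSO set 4 than in set 2, which by itself makes each difference more negative. The means in sets 2 and 4 were 17.2 and 12.8 CPM for ORC1 and 20.6 and 14.3 CPM for CDC6. They were 99.8 and 90.8 CPM for MCM4 and 6.97 and 5.15 CPM for ORC6. The part of the DMSO sets in these differences was not tested. ORC1 had a difference of -1.73 ± 0.48 (adjusted p = 0.573), CDC6 of -1.14 ± 0.39 (adjusted p = 0.911), and MCM4 of -0.61 ± 0.26 (adjusted p = 0.911). For TYMS the difference was -0.17 ± 0.31, for PCNA -0.37 ± 0.35, and for TK1 -0.08 ± 0.45 (adjusted p = 1 for all 3). When both DMSO sets were merged into 1 control group, the control dropped out of the difference. The MK-0752 libraries, of set 2, were then compared directly with the combination libraries, of set 4, so set and treatment cannot be told apart. In that fit 33 of the 40 had a negative difference in place of 28, 11 were lower at an unadjusted p under 0.05, and 0 were called. With the sets separate, 53.9% of all genes had a negative difference. The shares of all genes with the sets merged are not given here, so nothing is read from the counts of 33 and 11. The difference of TK1, which was higher in DMSO set 4, was -0.94 with the sets merged (adjusted p = 1). ORC1 was called without DMSO library 2-3 or without DMSO library 4-1, against 0.288% and 0.315% of all genes called lower, and its adjusted p over the alternatives ran from 0.00426 to 0.889. That of CDC6 ran from 0.0789 to 1 and that of MCM4 from 0.372 to 1.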

How the data were processed

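RNA from 12 libraries was sequenced after ribosomal RNA depletion with a stranded library kit. Per the labels and the study's methods, the authors trimmed reads with Trim Galore 0.3.7, aligned them to hg38 with STAR 2.7.9a, and deposited raw counts per gene without normalization. The annotation, the strand setting, and any removal of duplicate reads are not given in the sources used here. Library totals ran from 25250057 to 40709885 counts.

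The 40 genes, the gene lists, the E2F words, and the tests were chosen with earlier results of these data known. edgeR 4.0.16 in R 4.3.3 was fitted to all 12 libraries in 6 groups (TMM, filterByExpr, robust quasi-likelihood), with Benjamini-Hochberg adjustment over 21114 genes. Genes named with full values were TYMS, TK1, PCNA, and in each comparison the called genes (at most the 8 with the lowest p) or the 3 with the lowest p. Other genes were named, after their values were seen, as the ends of a range or as exceptions. Of the 40 genes 7 share exonic bases with another gene on their strand, 15 on the other strand, and 9 have a named pseudogene in GENCODE v44. No 2 libraries were identical. The test was tried on simulated data. Alternatives were DESeq2 1.42.0, its size factors in edgeR, every gene with at least 1 count, a filter at 50 counts on average, protein-coding genes, a fit restricted to the groups compared, both DMSO sets of SK-LMS-1 merged, a replicate block, and each library left out. The values of 1 gene outside the 40 are not reported here.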

Additional observations from a re-analysis of the deposited data

Results flagged for a closer look

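Among 40 genes examined for a library far from the others over the 4 SK-LMS-1 DMSO libraries, 2 had one, and chance gives about 1 in 20. The library 2-1 was lowest for MCM7 (122 CPM against 150, 153, and 150 CPM), with a gap of 0.894 of the range. It was highest for POLA1 (37.4 CPM against 27.4, 26.8, and 26.3 CPM), with a gap of 0.887 of the range.

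For ORC1 both SK-UT-1B combination libraries lay below DMSO and both SK-LMS-1 combination libraries above it, and the test of the difference gave a log2FC difference of -1.464 (adjusted p = 0.436 in edgeR). RPA3 showed the same opposite directions, with a difference of -1.312 (adjusted p = 0.476). In SK-LMS-1, ORC1 lay below DMSO set 2 in both MK-0752 libraries and above DMSO set 4 in both combination libraries. The difference was -1.726 (adjusted p = 0.573 in edgeR). The combination libraries had 15.02 and 17.97 CPM and set 4 had 14.89 and 10.68 CPM, so 1 pair lay close together. DMSO library 2-1, at 22.04 CPM, was above both combination libraries. Of all genes, 15.4% lay below DMSO after the combination in SK-UT-1B and 21% lay above it in SK-LMS-1. The shares of all genes with opposite directions are not given here, so nothing is read from the number of genes flagged. None of these differences passed the threshold, and their causes were not tested.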

How the results depend on the processing

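Relative to SK-UT-1B after DMSO, the number of genes called lower in SK-LMS-1 stayed between 34 and 35 when each library was left out, and the number called higher between 0 and 1. After the combination these ranges were 18 to 30 and 1 to 2, and with the libraries of the comparison alone 17 were called lower. Over all genes, 14.6% to 17.8% were called lower after DMSO and 8.6% to 12% after the combination with a library left out, and 17.8% with the libraries of the comparison alone. For the combination in SK-UT-1B, 0 became 2 with DESeq2, 10 with no filter beyond 1 count, and 0 to 17 with a library left out, while 1%, 1.26%, and 0.883% to 3.77% of all genes were called lower. For MK-0752 in SK-LMS-1, 0 became 1 with DESeq2, 3 with no filter, and 0 to 1 with a library left out, against 0.592%, 0.602%, and 0.332% to 0.531%. For the difference of the combination between lines it was 0 to 9 with a library left out (0.571% to 2.37% of all genes), and for MK-0752 minus the combination 1 with no filter (0.186%) and 0 to 1 with a library left out (0.182% to 0.747%). With a library left out, the median log2FC of the 39 genes ran from -1.72 to -1.59 between the lines after DMSO, -1.36 to -0.72 after the combination, -0.86 to -0.40 for the combination in SK-UT-1B, -0.54 to -0.29 for MK-0752, -0.17 to -0.01 for the combination in SK-LMS-1, -0.78 to -0.22 for its difference between lines, and -0.34 to -0.16 for MK-0752 minus the combination. Leaving out a library leaves a group with 1 sample, which is then assumed to vary like the others. The causes of these shifts were not tested.

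Of the log2FC of single genes under the alternatives, 598 kept direction and side of the threshold, 31 passed it anew, 4 no longer passed, and 13 reversed. The reversed ones were -0.01, -0.08, and -0.15 in the tests as reported. The difference of TK1 between the lines was 0.01 with DESeq2, 0.01 with its size factors, 0.002 with no filter, 0.018 with a mean of at least 50 counts, and 0.031 with protein-coding genes, and ran from -0.719 to 0.467 with a library left out (0.163, 0.083, 0.047, and 0.467 where positive). TK1 in MK-0752 minus the combination was -0.936 with both DMSO sets merged, ran from -0.337 to 0.191 with a library left out, and was 0.191, 0.109, and 0.028 without DMSO 2-3, DMSO 4-1, and combination 4-2, and PCNA for the combination in SK-LMS-1 ran from -0.39 to 0.077, positive without combination 4-2. With a replicate block, possible only for SK-LMS-1 set 4, 0 of the 40 genes were called, as without it, in the combination and in both differences of effects, while HES1 lost its call in the combination (adjusted p = 0.0532), and the deviations of libraries with the same number correlated with r = -0.011, so the numbers were not taken as pairs.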
